A study of Mus musculus with 9 samples.

Results

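The genes described here are 37 genes by which blood vessel endothelium is recognised in tissue RNA. They were taken by symbol from the 53465 gene IDs of the count files, each symbol matching 1 mouse Ensembl ID, and all 37 passed the filter on low counts and were among the 13825 genes tested. RNA was sequenced from the hearts of mice of the immunodeficient NOD-SCID strain, with 3 libraries per group. The sham group had the operation without vessel occlusion. The ligation group had a coronary artery tied off, and the cells group had the same ligation followed by implantation of cells named FOXO3-GE-MPCs, a name the labels do not spell out. All 9 libraries carry the infarct border zone as their region, also those of sham hearts, which have no infarct. The source field of cells replicates 2 and 3 names other FOXO members, while their titles and treatment fields name FOXO3, and the latter were followed. The labels give no age, sex or time after surgery, and they do not say whether the libraries came from separate animals.

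Endothelial cells line every vessel and make up a large share of the non-muscle cells of the heart, where the muscle depends on a dense capillary bed. Junction proteins such as VE-cadherin and claudins hold the lining together, ETS and SOXF transcription factors maintain its gene programme, and the Tie receptors with their angiopoietin ligands set whether vessels rest or remodel. Capillaries, arteries, veins and the endocardium each add genes of their own, and sprouting vessels switch on a further set that includes apelin and Esm1. In bulk tissue a lower level can reflect fewer endothelial cells or less RNA per endothelial cell. Levels are shares of a library, so more RNA from other cells also lowers them. These cannot be told apart.

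Libraries held 4549268 to 7515052 gene counts, so that a level of 3 counts corresponded to 0.375 to 0.639 CPM (counts scaled to an equal library size with TMM factors), and the lowest count of any member in any library was 26, for Esm1. Before the results it has to be said that the file headers of sham replicates 1 and 2 share a name stem, as do those of ligation replicates 2 and 3. Mean chi-square per gene between replicates ran from 1.98 to 3.96, above sampling noise for every pair, so all 9 libraries were kept. Where nothing shows separate animals, p-values measure the spread between libraries only. By the GENCODE annotation 29 members share no exonic base with another annotated gene, and 5 share more than 10% of theirs. These 5 are Ramp2 (33.4%, with Vps25), Nos3 (32.3%, with Atg9b and an antisense gene), Sox17 (16.8%), Angpt1 (14.2%) and Egfl7 (11.2%), and their levels are uncertain to that extent, since how the counting treated reads in shared bases, and its strand setting, are not given.

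In sham hearts the members were compared per gene length, as CPM per kilobase of merged exons. Aqp1, the water channel of capillary endothelium, was highest at 277 ± 10.9 CPM per kb (SD, n = 3), followed by Eng at 139.8 ± 8.70. Sox18, Cdh5 and Rgcc came next at 105 ± 10.8, 103 ± 5.84 and 99.5 ± 5.85, and did not differ beyond their spread. Gpihbp1 and Pecam1 followed at 77.5 ± 4.75 and 68.6 ± 3.08. At the low end stood 4 genes of secreted factors, with Apln at 4.69 ± 0.439, Angpt1 at 3.51 ± 0.371, Angpt2 at 3.47 ± 0.329 and Esm1 at 2.59 ± 0.532 CPM per kb. Of the 36 neighbouring pairs in this order, 22 were closer together than the sum of their SDs. After ligation Plvap moved from rank 21 to rank 7, and with cells it stood at rank 13.

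Most of the endothelial genes were lower after ligation. The 37 were chosen with earlier results of these data known, so their counts are descriptive. Of the 37, 26 fell and 3 rose at an adjusted p under 0.05 by edgeR's quasi-likelihood test, while over all tested genes 38.2% passed, 18.0% falling and 20.1% rising. The median log2 fold change of the members was -0.40, against 0.01 over all genes. The 3 that rose were Plvap, Esm1 and Vwf. The 8 that did not pass were Clec14a, Ecscr, Sox17, Angpt1, Angpt2, Ptprb, S1pr1 and Calcrl. CPM ranges of ligation and sham did not overlap for 27 members that were lower and 3 that were higher (Plvap, Esm1 and Calcrl), a separation seen downward in 22.6% and upward in 25.0% of all genes. Scaling to library totals alone raises the median gene by 0.19 on the log2 scale and moves the split of the members to 20 lower and 5 higher. Under TMM the median gene is near 0. TMM assumes that most genes do not change, so that median cannot show which scale is right.

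Fewer endothelial genes differed between the 2 ligated groups. In cells against ligation 8 of 37 members passed 0.05, 4 higher and 4 lower, beside 9.87% of all genes (4.19% higher and 5.69% lower), and the median was 0.03. The 4 higher genes were Cldn5, She, Aqp1 and Tek, and the 4 lower ones Plvap, Vwf, Rgcc and Eng. The number of members past the threshold was 5 in each of the fits without ligation replicate 2, ligation replicate 3 or cells replicate 2, and 5 when libraries with a shared header stem were summed. Cldn5, Aqp1, Plvap and Vwf passed in all 19 alternatives. In cells against sham 26 members were lower and 3 higher (Plvap, Esm1 and Calcrl), beside 40.9% of all genes in either direction (20.0% lower and 21.0% higher), with a median of -0.34. Ranges of the cells and sham groups did not overlap for 29 members that were lower and 3 that were higher, beside 24.5% and 25.4% of all genes. Between the 2 ligated groups they did not overlap for 9 members higher with cells and 10 lower, beside 13.2% and 14.0% of all genes. The first and second comparisons share the ligation libraries and the comparisons with sham share the sham libraries, so their values are set side by side and not as independent results.

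**Figure D1:**
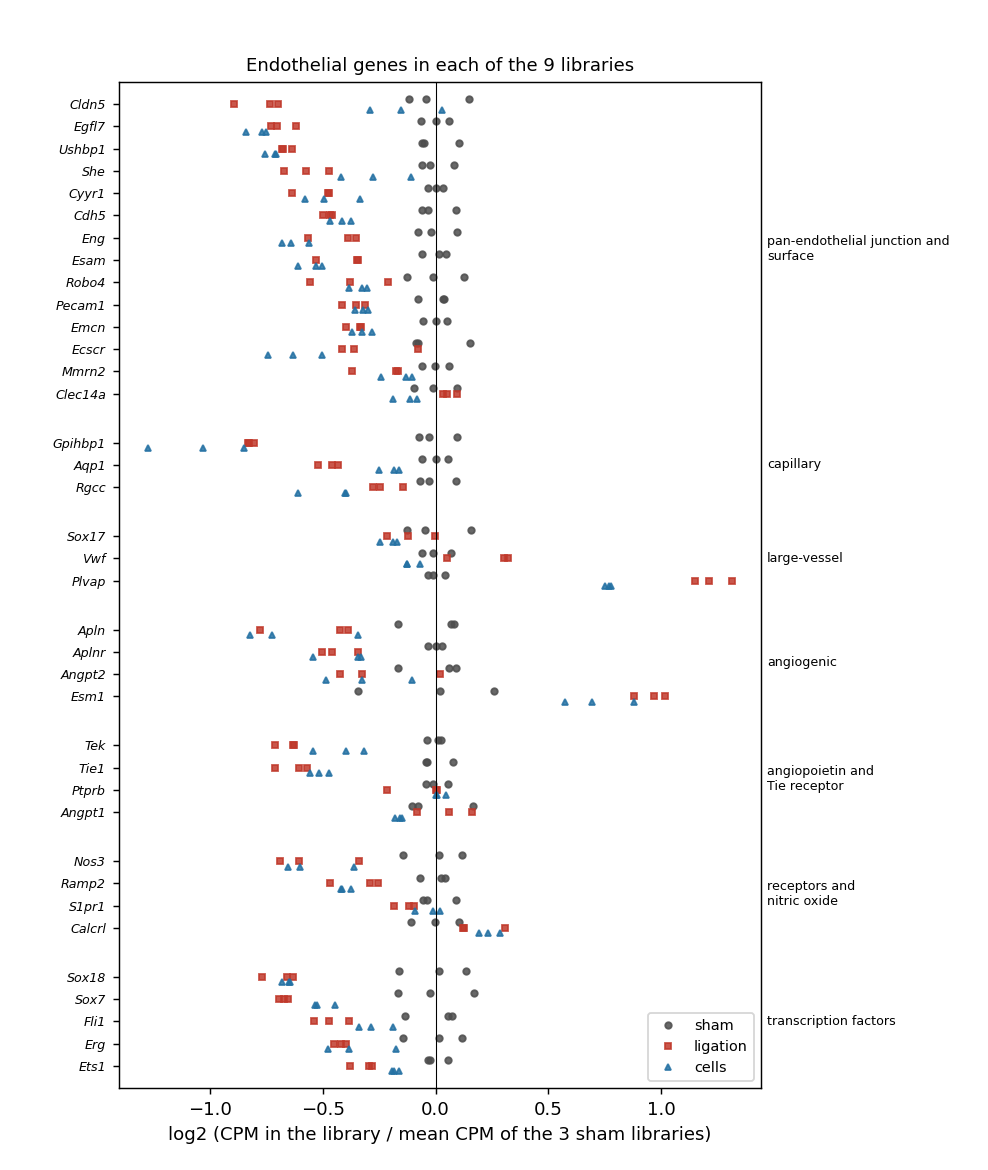
Level of each of the 37 genes in each of the 9 libraries, as the log2 ratio of its CPM to the mean CPM of the 3 sham libraries; circles are sham, squares ligation and triangles cells, and rows are grouped by role. Most squares and triangles lie left of 0, while those of Plvap and Esm1 lie right of it and away from every sham library.

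Genes found in nearly all endothelium were mostly lower after ligation. Of 14 junction and surface genes, 12 were lower after ligation and 0 higher, beside 18.0% and 20.1% of all genes, with a median of -0.41. Pecam1 (ENSMUSG00000020717, chr11:106654217-106750628, minus strand), an adhesion molecule of endothelial junctions that leukocytes and platelets also carry, was at 405, 438 and 439 CPM in sham, 320.3, 335 and 344 in ligation and 342, 333 and 347 with cells. Every library of both ligated groups was below every sham library. Ligation against sham gave a log2 fold change -0.36, SE 0.0481, edgeR adjusted p 4.81e-06, and cells against ligation gave 0.03 (SE 0.0482, edgeR adjusted p 0.751). Cdh5 (ENSMUSG00000031871, chr8:104101625-104144511, plus strand) encodes VE-cadherin, the adhesion protein of adherens junctions. Its CPM was 425, 462 and 416 in sham, 307, 314 and 316 in ligation and 335, 314 and 326 with cells. The log2 fold change after ligation was -0.47 (SE 0.0493, edgeR adjusted p 1.45e-07), and the difference with cells was 0.06 (SE 0.0494, edgeR adjusted p 0.553).

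Cldn5 (ENSMUSG00000041378, chr16:18776847-18778262, plus strand), the claudin of endothelial tight junctions, showed the largest fall of this group and the largest rise of all members with cells. It was at 69.4, 57.7 and 60.8 CPM in sham, 37.7, 38.6 and 33.8 in ligation and 51.2, 63.95 and 56.3 with cells. The ligation libraries lay below all others, and the cells libraries overlapped sham. Its log2 fold change was -0.77 (SE 0.0946, edgeR adjusted p 1.38e-06) after ligation and 0.65 (SE 0.0939, edgeR adjusted p 7.87e-05) with cells against ligation, a 1.56-fold difference. Against sham the cells group differed by -0.13 (SE 0.0889, edgeR adjusted p 0.262), which did not pass and whose sign turned to 0.03 with library totals alone. Per kilobase, the level of Cldn5 over that of Cdh5 was 0.430 ± 0.0575 in sham, 0.349 ± 0.0273 in ligation and 0.524 ± 0.0755 with cells (SD, n = 3).

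Egfl7, a secreted endothelial factor whose gene hosts a microRNA, fell from 178, 185 and 169 CPM in sham to 109, 107 and 115 in ligation and was 105, 99.2 and 104 with cells. The change after ligation was -0.68 (SE 0.0588, edgeR adjusted p 1.02e-08). Ushbp1, an endothelial gene of little-known function, was at 174, 156 and 156 CPM in sham, 101, 104 and 102 in ligation and 99.2, 99.04 and 96.1 with cells, a change of -0.66 (SE 0.0601, edgeR adjusted p 1.97e-08) after ligation. For both genes no ligated library reached the sham range, and the cells libraries lay below the ligation libraries without passing the test. She, an adaptor protein with an SH2 domain, was at 52.9, 54.2 and 58.3 CPM in sham, 37.1, 34.6 and 39.8 in ligation and 51.1, 45.5 and 41.2 with cells. It fell by 0.57 after ligation and was higher with cells by 0.30 (SE 0.0892, edgeR adjusted p 0.0339). That last call was lost without ligation replicate 1 or 2 and without cells replicate 1 or 2, with edgeR adjusted p-values up to 0.189, and with the replicate block (0.0527), 2-group fits (0.0525), DESeq2 (0.0702), library totals alone (0.0630) and summed header stems (0.0632).

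Eng, the endoglin co-receptor for ligands of the TGF-beta family, was at 536, 605 and 558 CPM in sham, 382, 444 and 432 in ligation and 383, 363 and 353 with cells. It fell after ligation by 0.43 on the log2 scale and was lower again with cells by 0.20 (SE 0.0576, edgeR adjusted p 0.0345), with ranges of the 2 ligated groups that overlapped. The cells call was lost in 4 fits that each left out 1 library (ligation replicate 2 or 3, cells replicate 2 or 3), with edgeR adjusted p-values up to 0.179, and with summed header stems (0.0981). Esam, Cyyr1, Robo4, Emcn and Mmrn2 fell after ligation by between 0.23 (Mmrn2) and 0.52 (Cyyr1), and none of them passed in cells against ligation, though Esam did without ligation replicate 1 (-0.20, edgeR adjusted p 0.0489). In cells against sham the call of Mmrn2 (-0.16 (SE 0.0623, edgeR adjusted p 0.0495)) was lost in 10 of 19 alternatives, among them both other filters on low counts, all 3 fits without a cells library and those without sham replicate 2 or 3, at adjusted p-values up to 0.197 in these fits. The calls of Robo4 and Mmrn2 after ligation were lost with library totals alone, at edgeR adjusted p-values of 0.0851 and 0.636. Clec14a, a lectin-like surface protein whose matrix ligand is Mmrn2, was at 79.7, 84.5 and 90.96 CPM in sham, 88, 87.1 and 91 in ligation and 74.6, 80.3 and 78.7 with cells. Sham and ligation overlapped, with 0.06 (SE 0.0657, edgeR adjusted p 0.508), and the cells libraries lay wholly below those of ligation without a call, at -0.19 (SE 0.0653, edgeR adjusted p 0.0751). With library totals alone both passed, at 0.25 (edgeR adjusted p 0.00469) and -0.22 (0.0419). Ecscr, an endothelial surface protein, was at 32.2, 27.5 and 27.3 CPM in sham, 27.5, 22.6 and 21.8 in ligation and 18.7, 17.3 and 20.4 with cells, and passed in cells against sham (log2 fold change -0.62, SE 0.118, edgeR adjusted p 0.000262). After ligation it was at -0.29 (SE 0.117, edgeR adjusted p 0.0541), a value that passed with RLE size factors, limma-voom, 2-group fits, without the mitochondrially encoded genes and without ligation replicate 1, at adjusted p-values from 0.0191 to 0.0484. The difference between the 2 ligated groups did not pass (log2 fold change -0.33, SE 0.121, edgeR adjusted p 0.0956), though their ranges did not overlap.

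The transcription factors of the endothelial programme fell, 5 of 5 after ligation (median -0.46) and 5 of 5 in cells against sham (median -0.34), beside 18.0% and 20.0% of all genes falling in these comparisons. Sox18 and Sox7 are SOXF factors that drive vessel identity. Sox18 was at 172, 187 and 152 CPM in sham, 99.9, 110 and 108 in ligation and 109, 109 and 106 with cells, and fell after ligation by 0.68 (SE 0.0692, edgeR adjusted p 1.04e-07). Sox7 was at 51.97, 57.3 and 65.6 CPM in sham, 37.1, 36.6 and 36 in ligation and 40.3, 40.5 and 42.8 with cells, with a change of -0.68 (SE 0.0861, edgeR adjusted p 2.37e-06). In both genes all 6 libraries of ligated hearts lay below the lowest sham library. Erg, Fli1 and Ets1 are ETS factors, of which Erg is the most endothelial and Fli1 and Ets1 are also found in blood cells. Erg was at 66.9, 80.2 and 74.8 CPM in sham, 54.1, 55.3 and 56.2 in ligation and 65.5, 53.1 and 56.8 with cells. Fli1 was at 58.2, 50.4 and 57.6 CPM in sham, 38.1, 39.9 and 42.5 in ligation and 45.4, 48.7 and 43.8 with cells. Each was lower in all 6 ligated libraries than in any sham library. Their changes after ligation were -0.42 (SE 0.0829, edgeR adjusted p 0.000384) and -0.46 (SE 0.0820, edgeR adjusted p 0.00015), and Ets1 changed by -0.32 (SE 0.0545, edgeR adjusted p 8.54e-05). With cells against ligation all 5 log2 fold changes were positive, from 0.03 to 0.19, and 0 of 5 passed edgeR's test, near the 4.19% of all genes that rose. At an unadjusted p under 0.05 there were 2 of 5, beside 22.8% of all genes in either direction. With library totals alone that of Sox18 turned to -0.00444, and the call of Ets1 after ligation was lost (edgeR adjusted p 0.0605). That scaling also ended the calls of Erg, Fli1 and Ets1 in cells against sham, at 0.0829, 0.289 and 0.784, leaving 2 of 5, and Fli1 was lost there without cells replicate 3 (0.0505).

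ETS factors bind DNA at sequences with the core GGAA, and the promoters of members were read for it. RefSeq windows of 250 bases before to 50 after the transcription start (GRCm38.p6, the assembly also called mm10) were at hand for 17 of the 37 genes, in 21 windows. GGAA or its reverse complement TTCC was in 20 of 21 windows (95.2%) and in 96.0% of all 32851 windows. The longer form CAGGAAG, which holds that core, was on either strand in 9 of 21 windows (42.9%) against 13.3% of all windows. Another ETS form, CGGAAG, was in 2 of 21 (9.52%) against 16.9%. The forkhead motif GTAAACA was in 0 of 21 against 3.65%, and AACAAT, a SOX motif, in 5 of 21 (23.8%) against 10.7%. Of the 8 genes with CAGGAAG 7 fell after ligation, the exception being Calcrl, which did not pass. Of the 9 genes without it 7 also fell, Cldn5 among them, 1 rose (Esm1) and 1 did not pass (Clec14a). Over all genes 18.0% fell and 20.1% rose. These shares are descriptions with no test, several windows belong to the same gene, and a match is not a bound site. The upstream 250 bases are printed 5′ to 3′ on the gene's strand for 3 genes with a CAGGAAG match and for Esm1 and Cldn5, which have none, to show windows of both kinds. Capitals mark CAGGAAG or its reverse complement CTTCCTG.
Emcn, chr3:137340828-137341077, plus strand: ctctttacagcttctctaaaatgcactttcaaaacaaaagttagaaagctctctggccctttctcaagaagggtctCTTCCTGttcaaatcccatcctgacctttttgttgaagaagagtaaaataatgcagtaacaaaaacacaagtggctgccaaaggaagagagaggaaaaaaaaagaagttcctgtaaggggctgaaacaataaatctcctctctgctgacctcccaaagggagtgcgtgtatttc
Ushbp1, chr8:71395802-71396051, minus strand: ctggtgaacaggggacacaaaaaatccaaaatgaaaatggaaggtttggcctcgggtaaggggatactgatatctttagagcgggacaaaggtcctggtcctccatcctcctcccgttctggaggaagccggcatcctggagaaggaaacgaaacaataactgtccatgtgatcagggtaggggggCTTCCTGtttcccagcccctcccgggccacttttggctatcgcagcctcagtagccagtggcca
Apln, chrX:48034854-48035103, minus strand: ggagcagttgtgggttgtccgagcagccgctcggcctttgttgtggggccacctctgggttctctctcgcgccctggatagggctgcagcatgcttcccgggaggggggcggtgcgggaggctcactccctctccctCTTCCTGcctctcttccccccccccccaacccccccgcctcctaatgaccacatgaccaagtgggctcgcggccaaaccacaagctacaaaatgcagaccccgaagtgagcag
Esm1, chr13:113209409-113209658, plus strand: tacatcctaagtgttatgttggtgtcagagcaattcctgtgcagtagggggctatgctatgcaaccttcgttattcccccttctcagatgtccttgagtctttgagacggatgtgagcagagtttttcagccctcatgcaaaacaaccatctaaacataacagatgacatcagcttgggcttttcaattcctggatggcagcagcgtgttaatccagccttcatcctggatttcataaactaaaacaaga
Cldn5, chr16:18776597-18776846, plus strand: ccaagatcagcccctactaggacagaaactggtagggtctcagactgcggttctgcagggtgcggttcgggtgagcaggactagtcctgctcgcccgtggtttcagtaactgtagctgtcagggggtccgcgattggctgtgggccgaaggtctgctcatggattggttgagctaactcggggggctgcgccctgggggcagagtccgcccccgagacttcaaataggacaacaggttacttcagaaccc
The match begins 174 bases before the start in Emcn, 64 in Ushbp1 and 113 in Apln. Cldn5 has neither GGAA nor TTCC in its 300-base window, while Esm1 has 4 of them.

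All 3 capillary genes fell after ligation, beside 18.0% of all genes, with log2 fold changes from -0.82 to -0.22. Gpihbp1 (ENSMUSG00000022579, chr15:75596628-75599481, plus strand), the protein that holds lipoprotein lipase on the capillary wall, was at 188, 212 and 194 CPM in sham, 112, 111 and 113 in ligation and 109.9, 81.8 and 97.1 with cells. The ligation libraries lay close together and 1.77-fold below sham (log2 fold change -0.82, SE 0.0788, edgeR adjusted p 4.54e-08). With cells it was lower still, with ranges that did not overlap those of ligation, but -0.22 (SE 0.0808, edgeR adjusted p 0.0955) did not pass. It did pass without cells replicate 1 and with no filter on low counts, at edgeR adjusted p-values of 0.0132 and 0.0200. Relative to Pecam1, the level of Gpihbp1 per kilobase was 1.13 ± 0.0508 in sham, 0.822 ± 0.0251 in ligation and 0.688 ± 0.0924 with cells (SD, n = 3).

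Aqp1 (ENSMUSG00000004655, chr6:55336432-55348555, plus strand) fell after ligation and was higher with cells. Its CPM was 727, 756 and 698 in sham, 506, 538 and 529 in ligation and 650.1, 611 and 639 with cells. The 3 groups did not overlap, and the cells group lay between the other two. The log2 fold change was -0.47 (SE 0.0444, edgeR adjusted p 3.59e-08) after ligation and, with cells against ligation, 0.27 (SE 0.0443, edgeR adjusted p 0.00028). Aqp1 remained 1.15-fold below sham with cells (log2 fold change -0.20, SE 0.0441, edgeR adjusted p 0.00111), a call lost with library totals alone (edgeR adjusted p 0.507). Rgcc, a regulator of the cell cycle that is abundant in cardiac capillaries, stepped down in each group, at 97.4, 87.2 and 89.4 CPM in sham, 76.9, 75.4 and 82.5 in ligation and 69.4, 69.1 and 59.9 with cells. Its changes were -0.22 (SE 0.0721, edgeR adjusted p 0.0208) after ligation and -0.25 (SE 0.0731, edgeR adjusted p 0.037) with cells. The first call was lost without sham replicate 1 or ligation replicate 2 and with library totals alone (edgeR adjusted p 0.109, 0.0939 and 0.769). The second was lost without ligation replicate 2 or 3 or cells replicate 1 or 3, with DESeq2 and with summed header stems, at adjusted p-values from 0.0504 to 0.197.

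**Figure D2:**
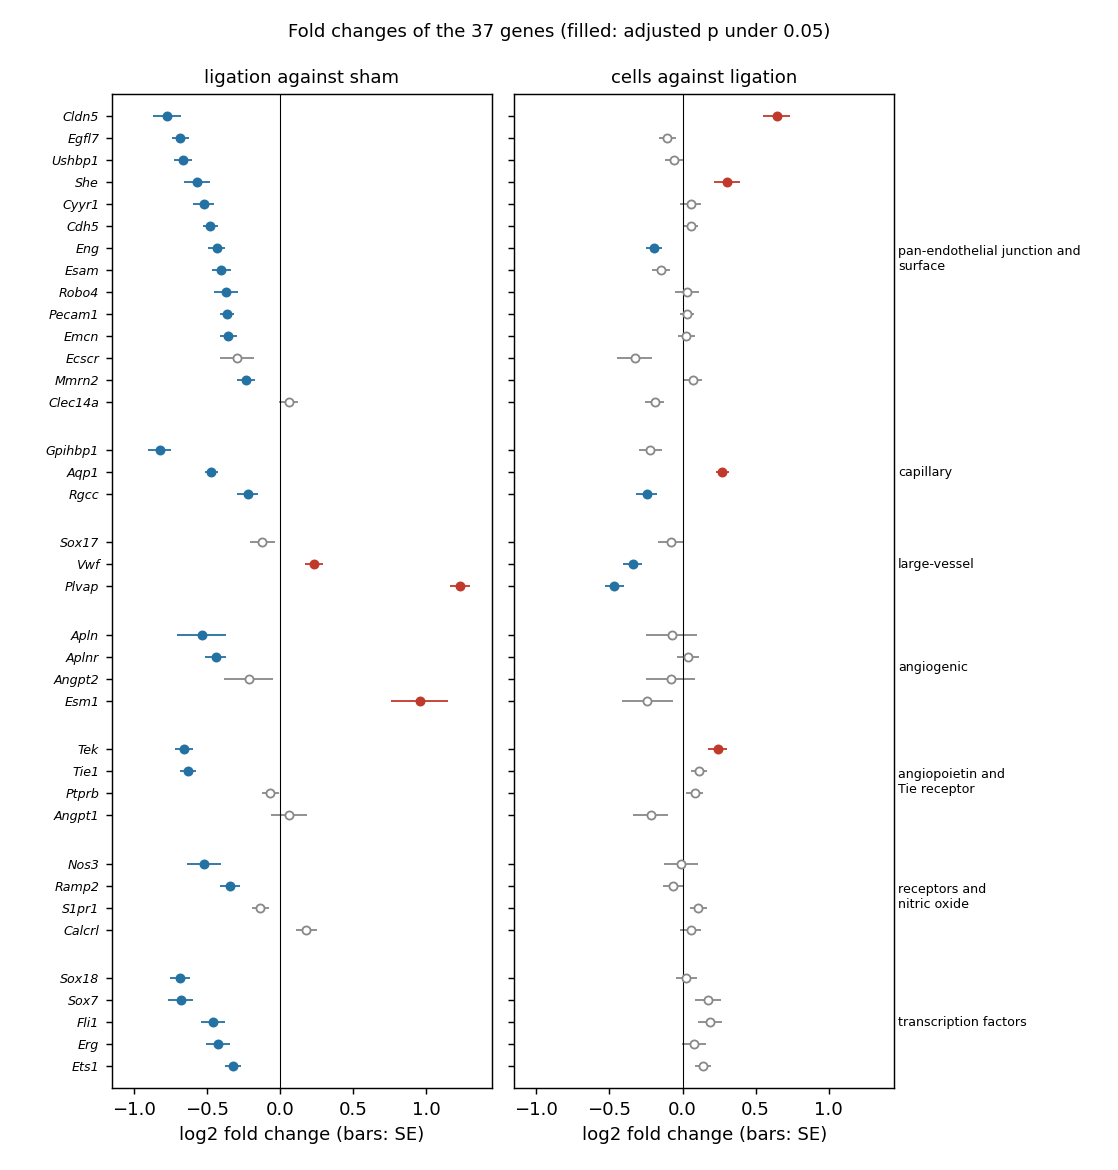
Log2 fold change of each gene with its standard error, ligation against sham on the left and cells against ligation on the right; filled points passed an adjusted p of 0.05 (red higher, blue lower), open points did not. In the left panel 26 filled points lie below 0 and 3 above; in the right panel 4 lie on each side.

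Of the 3 genes of larger and specialised vessels 2 rose after ligation and 0 fell, beside 20.1% and 18.0% of all genes, and with 3 genes a count of 0 is near that share. Plvap (ENSMUSG00000034845, chr8:71497765-71511752, minus strand), which forms the diaphragms of caveolae and fenestrae and marks veins and endocardium in the heart, was at 39.3, 41.5 and 40 CPM in sham, 89.5, 93.3 and 100 in ligation and 68.7, 67.7 and 69 with cells. No 2 groups overlapped, and the cells group lay between the other two. Plvap rose 2.35-fold after ligation (log2 fold change 1.23, SE 0.0685, edgeR adjusted p 1.23e-11), the largest change of any member in this comparison. With cells it was 1.38-fold lower than in ligation (log2 fold change -0.47, SE 0.0635, edgeR adjusted p 3.65e-05) and 1.70-fold above sham (log2 fold change 0.76, SE 0.0697, edgeR adjusted p 2.03e-08). Per kilobase, Plvap stood at 0.296 ± 0.00939 of the Pecam1 level in sham, 0.887 ± 0.0219 in ligation and 0.630 ± 0.00677 with cells (SD, n = 3).

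Vwf (ENSMUSG00000001930, chr6:125546774-125686679, plus strand), the clotting protein stored in endothelium of larger vessels and in platelets, was at 177, 194 and 183 CPM in sham, 191, 231 and 228 in ligation and 176, 169 and 169 with cells. Ligation replicate 1 lay within the sham range, the other two ligation libraries above it, and the cells libraries below every sham and ligation library. Vwf was higher after ligation by 0.23 (SE 0.0645, edgeR adjusted p 0.00673), a call lost without ligation replicate 3 (0.18, edgeR adjusted p 0.0618) and with summed header stems (0.18, 0.0666). It was lower with cells than with ligation by 0.34 (SE 0.0643, edgeR adjusted p 0.0012). Against sham the cells group differed by -0.11 (SE 0.0648, edgeR adjusted p 0.197), which did not pass and turned to 0.05 with library totals alone. Sox17, an arterial SOXF factor, was at 42, 51.2 and 44.5 CPM in sham, 45.8, 39.5 and 42.1 in ligation and 38.7, 40.8 and 40.3 with cells. It passed in none of the 3 comparisons by edgeR (adjusted p 0.306, 0.644 and 0.0711), with unadjusted p-values of 0.186, 0.362 and 0.0316. It did pass in cells against sham without sham replicate 1, at 0.0342.

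Among the 4 genes of sprouting vessels 1 rose and 2 fell after ligation, beside 20.1% and 18.0% of all genes, the count that rose being near that share. Esm1 (ENSMUSG00000042379, chr13:113209659-113218098, plus strand), a secreted proteoglycan made by tip cells, was at 5.52, 4.28 and 6.51 CPM in sham, 10.01, 11 and 10.6 in ligation and 8.09, 9.99 and 8.79 with cells. All 6 libraries of ligated hearts were above every sham library. The change was 0.96 (SE 0.195, edgeR adjusted p 0.000538) after ligation, a 1.94-fold difference, and 0.72 (SE 0.197, edgeR adjusted p 0.00614) in cells against sham. With cells against ligation it was -0.24 (SE 0.176, edgeR adjusted p 0.464), with ranges that did not overlap and no call.

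Apln (ENSMUSG00000037010, chrX:48025146-48034853, minus strand), the apelin ligand made by sprouting endothelium, and its receptor Aplnr fell after ligation. Apln was at 15.5, 15.7 and 13.2 CPM in sham, 11.3, 11 and 8.62 in ligation and 8.94, 11.7 and 8.36 with cells. Aplnr was at 71.9, 73.8 and 75.1 CPM in sham, 57.96, 51.95 and 53.6 in ligation and 58.6, 50.5 and 58.05 with cells. In both, every ligated library lay below every sham library. After ligation Apln changed by -0.53 (SE 0.167, edgeR adjusted p 0.0152) and Aplnr by -0.44 (SE 0.0737, edgeR adjusted p 7.23e-05). The Apln call was lost without sham replicate 1, sham replicate 2 or ligation replicate 3, and with library totals alone, at edgeR adjusted p-values of 0.0503, 0.0520, 0.0854 and 0.0956. With cells against ligation neither passed (-0.08 and 0.04, edgeR adjusted p 0.849 and 0.825). The Apln level per kilobase was 0.236 ± 0.0259 of that of Aplnr in sham, 0.222 ± 0.0305 in ligation and 0.206 ± 0.0562 with cells (SD, n = 3), differences within the spread. Angpt2, the angiopoietin stored in endothelium that loosens resting vessels, was at 13.3, 13.7 and 11.4 CPM in sham, 10.2, 9.55 and 13 in ligation and 11.9, 9.15 and 10.2 with cells. Its ranges overlapped in every comparison, and edgeR adjusted p-values were 0.337, 0.823 and 0.163.

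In the angiopoietin pathway both receptors fell after ligation, beside 18.0% of all genes, and the ligands did not pass. Tek (ENSMUSG00000006386, chr4:94739289-94874976, plus strand), the Tie2 receptor that binds both angiopoietins, was at 155, 161 and 160 CPM in sham, 102, 103 and 96.9 in ligation and 120.4, 127 and 109 with cells. Its 3 groups did not overlap, with the cells group between the other two. It fell after ligation by 0.66 (SE 0.0634, edgeR adjusted p 4.92e-08) and was higher with cells than with ligation by 0.24 (SE 0.0637, edgeR adjusted p 0.0183). That second call was lost without ligation replicate 3, cells replicate 1 or cells replicate 2, at edgeR adjusted p-values of 0.0930, 0.0668 and 0.109. Tie1, its partner receptor, was at 259.9, 282 and 260.3 CPM in sham, 163, 180.3 and 176 in ligation and 193, 182 and 187 with cells. Tie1 fell after ligation by 0.63 (SE 0.0555, edgeR adjusted p 1.47e-08), and with cells its range lay above that of ligation without a call, at 0.11 (SE 0.0558, edgeR adjusted p 0.241). Angpt1, the agonist ligand made mainly by perivascular cells, was at 20.5, 16.97 and 17.3 CPM in sham, 17.3, 20.4 and 19 in ligation and 16.4, 16.4 and 16.1 with cells. It passed in no comparison, with edgeR adjusted p-values from 0.303 to 0.732. The ratio of Angpt2 to Angpt1 per kilobase was 0.996 ± 0.122 in sham, 0.821 ± 0.153 in ligation and 0.902 ± 0.116 with cells (SD, n = 3), with differences within the spread. Ptprb, the phosphatase that acts on Tek, was at 327, 320.3 and 343 CPM in sham and 284, 332 and 330.3 in ligation, and passed in no comparison (edgeR adjusted p 0.42, 0.398 and 0.819 in cells against ligation, ligation against sham and cells against sham). With library totals alone it passed in cells against sham at 0.18 (edgeR adjusted p 0.0177).

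Of the genes for vessel tone, Nos3 and Ramp2 fell after ligation, beside 18.0% of all genes, and S1pr1 and Calcrl did not pass. Nos3, the endothelial nitric oxide synthase, was at 34.7, 37.2 and 31.1 CPM in sham, 21.3, 22.6 and 27.1 in ligation and 21.8, 26.8 and 22.6 with cells. No ligated library reached the lowest sham value, and the change was -0.52 (SE 0.115, edgeR adjusted p 0.00114) after ligation and -0.53 (SE 0.114, edgeR adjusted p 0.000801) in cells against sham. Ramp2 and Calcrl form the adrenomedullin receptor, and 1 of them fell. Ramp2 was at 88.1, 93.9 and 95.1 CPM in sham, 75.4, 77.4 and 66.9 in ligation and 69.2, 71.3 and 69 with cells, a change of -0.34 (SE 0.0683, edgeR adjusted p 0.000479) after ligation that was lost with library totals alone (edgeR adjusted p 0.0741). Calcrl was at 65.8, 56.8 and 61.1 CPM in sham, 75.8, 66.8 and 66.8 in ligation and 70.1, 74.8 and 72.02 with cells. Both ligated groups lay above the sham range, with 0.18 (SE 0.0742, edgeR adjusted p 0.0587) after ligation and 0.24 (SE 0.0733, edgeR adjusted p 0.0124) in cells against sham. The ligation value passed without sham replicate 1 (edgeR adjusted p 0.0334) and with library totals alone (0.00027), and the cells value was lost without sham replicate 2 (0.0762). Calcrl over Ramp2 per kilobase was 0.450 ± 0.0498 in sham, 0.646 ± 0.0540 in ligation and 0.700 ± 0.0134 with cells (SD, n = 3), with no overlap between sham and either ligated group. Since 33.4% of the exonic bases of Ramp2 lie in Vps25, this ratio is uncertain to that extent. S1pr1, the receptor for sphingosine-1-phosphate that stabilises the endothelial barrier, was at 141, 156 and 143 CPM in sham, 136, 129 and 137 in ligation and 146, 149 and 138 with cells, and passed in no comparison (edgeR adjusted p 0.0838, 0.296 and 0.752).

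**Figure D3:**
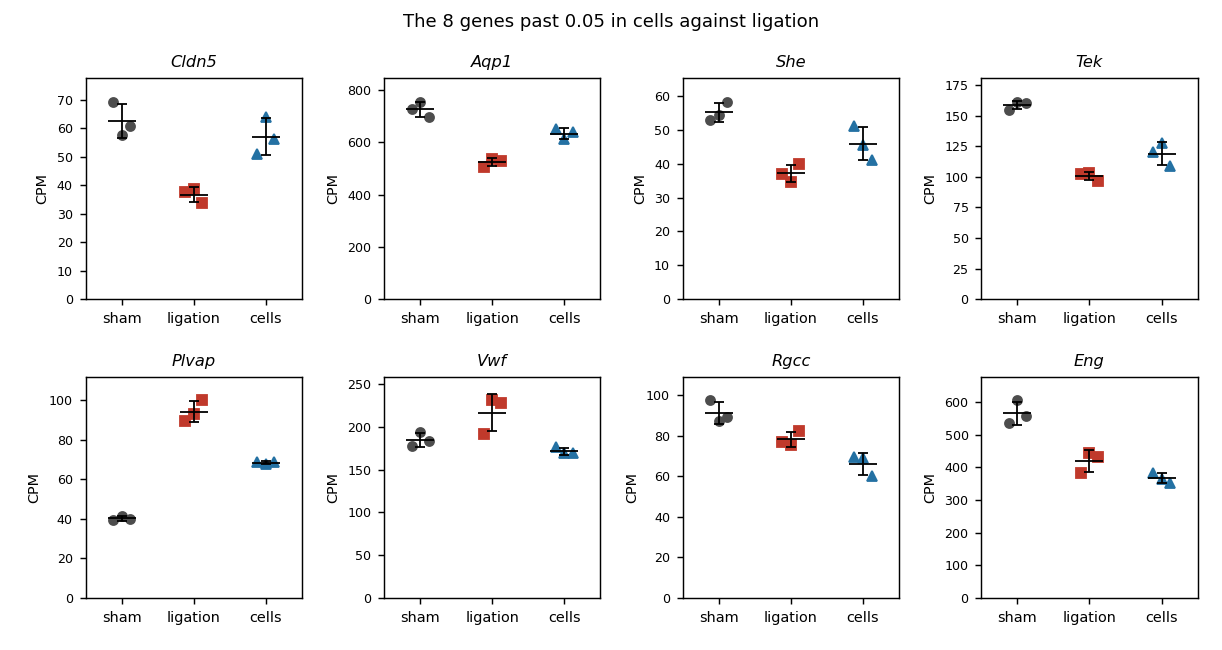
CPM of the 8 genes past an adjusted p of 0.05 in cells against ligation, each point 1 library, with the mean of 3 libraries as a horizontal line and the SD as whiskers; every axis starts at 0. Cldn5, Aqp1, She and Tek lie higher with cells than with ligation, and Plvap, Vwf, Rgcc and Eng lie lower.

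Endothelial genes outside the 37 were counted in the same fit. Their lists were also chosen with earlier results of these data known, so the counts are descriptive and no independent support. Of 20 further pan-endothelial genes 18 fell and 0 rose after ligation (median -0.46), led by Kdr, the main VEGF receptor, at -0.89, Gata2 at -0.86 and Icam2 at -0.85. All 10 genes of the further capillary list fell (median -0.75), with the largest changes in Car4 (-1.20), a carbonic anhydrase of the capillary surface, Timp4 (-1.06) and Tcf15 (-1.05), a transcription factor of cardiac capillaries. That list includes Cd36 (-0.59) and Lpl (-0.63), which are not confined to capillary endothelium. Lpl alone made up 47.9% of its summed CPM in sham. For these lists the shares over all genes are 18.0% falling and 20.1% rising. Among 11 arterial and endocardial genes 5 fell and 2 rose, the latter near that share, Gja5 being higher by 0.77 and Mecom and Hey1 lower by 0.54 and 0.53. Among 7 venous and activation genes 2 rose, near the share over all genes, and 0 fell. Ackr1, a chemokine receptor of venules, went from 0.534, 0.824 and 0.794 CPM in sham to 2.34, 3.47 and 2.75 in ligation and 3.12, 1.39 and 3.02 with cells, while Selp, the P-selectin of venules and platelets, went from 1.78, 0.824 and 2.38 CPM in sham to 3.20, 4.20 and 4.75 in ligation and 2.55, 3.19 and 3.17 with cells. Of 10 further sprouting genes 4 rose and 3 fell, with Unc5b at 0.65, Pdgfb at -0.71 and Trp53i11 at -0.57. The edgeR adjusted p-values of the genes named so far in these lists, after ligation, ran up to 0.00614. Of 5 lymphatic genes tested out of 6, 3 rose (Pdpn, Mmrn1 and Reln) and 0 fell. Prox1 and Lyve1 did not pass, at -0.01 and -0.12 (edgeR adjusted p 0.935 and 0.356). With cells against ligation 2 of the 5 were lower and 0 higher, beside 5.69% and 4.19% of all genes. These were Lyve1 at -0.62 and Pdpn at -0.53 (edgeR adjusted p 0.000284 and 0.0384).

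With cells against ligation, 4 of the 20 further pan-endothelial genes were higher and 1 lower, beside 4.19% higher and 5.69% lower over all genes, so that the count lower is near that share. Klf2 and Klf4, factors that endothelium raises under laminar flow and that other cell types also express, showed the largest changes of that list. Klf2 was at 115, 123 and 128 CPM in sham, 108, 99.8 and 109 in ligation and 188, 192 and 179 with cells, so the cells group lay above both other groups (log2 fold change 0.82, SE 0.0605, edgeR adjusted p 7.49e-09; against sham 0.61, edgeR adjusted p 6.64e-08). Klf4 was at 108, 95.5 and 107 CPM in sham, 79.7, 85.95 and 89.5 in ligation and 140.4, 134 and 133 with cells, with 0.67 (SE 0.0653, edgeR adjusted p 4.43e-07) against ligation. Gata2 rose by 0.31 (SE 0.0899, edgeR adjusted p 0.0296). Of the 10 further capillary genes 3 were higher with cells and 1 lower, beside the same 4.19% and 5.69%. Meox2, a capillary transcription factor, rose from 28.3, 22.3 and 28 CPM to 38.7, 41.3 and 35.4 with cells, beside 39.7, 40.7 and 41.1 in sham (log2 fold change 0.56, SE 0.0989, edgeR adjusted p 0.000621). Cd36, the fatty acid transporter of capillaries and muscle, rose by 0.29 (SE 0.0429, edgeR adjusted p 7.97e-05), and Timp4 fell by 0.52 (SE 0.0689, edgeR adjusted p 2.43e-05). Lpl, also higher, stood at 0.18 (SE 0.0473, edgeR adjusted p 0.0152). In the sprouting list Trp53i11 rose by 0.29, while Cxcr4 and Col4a2 fell by 0.53 and 0.26, and edgeR's adjusted p was 0.00852, 0.0413 and 0.00207 for them in turn.

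The summed level of the role lists was taken per library as a description with no test. The 14 junction and surface genes summed to 2593, 2724 and 2625 CPM in sham, 1875, 2017 and 2015 in ligation and 1968, 1914 and 1945 with cells, or 70.8% to 76.2% of the sham mean in ligation and 72.3% to 74.3% with cells. The 3 capillary genes were at 68.4% to 71.3% in ligation and 75.01% to 81.6% with cells, a sum of which Aqp1 made up 71.5% in sham. The 3 large-vessel genes were at 121% to 137% in ligation and 102% to 105% with cells. Vwf made up 68.2% of that sum in sham. From sham to ligation the mean of Plvap went from 40.3 to 94.3 CPM, that of Vwf from 185 to 217 and that of Sox17 from 45.9 to 42.5. With cells the 3 genes also went both ways against sham, Plvap standing at 0.76, Vwf at -0.11 and Sox17 at -0.20. The 4 sprouting genes were at 78.3% to 83.95% and 76.3% to 82.1%, a sum of which Aplnr made up 69.0% in sham and which does not show the rise of Esm1. The 5 transcription factors were at 69.7% to 72.5% and 76.02% to 77.5%.

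Markers of other cell types moved with the same groups, and their counts stand beside 20.1% of all genes higher and 18.0% lower after ligation, and 4.19% and 5.69% in cells against ligation. Against these, 2 of 8 fibroblast genes lower, 2 of 8 mural genes higher and 1 of 9 cardiomyocyte genes higher are not far from the share over all genes. Of 9 cardiomyocyte genes 6 fell and 1 rose after ligation, 1 fell and 2 rose in cells against ligation, and their summed CPM was 73% to 76.5% of sham in ligation and 72.3% to 73.97% with cells, near the values of the junction genes. The mural list, pericytes and smooth muscle, had 8 of 9 genes tested, of which 5 fell and 2 rose after ligation and 3 fell and 1 rose in cells against ligation. Its sum, of which Rgs5 made up 46.5% in sham, was at 73.5% to 74.8% and 72.2% to 73.3%. Of 8 fibroblast genes 4 rose and 2 fell after ligation, and in cells against ligation 0 passed edgeR's test. At an unadjusted p under 0.05 there were 2 of 8, near the 22.8% of all genes in either direction. The fibroblast sum was at 116% to 119% and 117% to 120.4%, and Gsn made up 52.4% of it in sham. After ligation Gsn changed by -0.09, and Col1a1 and Col1a2 by 1.175 and 1.286. Of 8 macrophage genes 7 rose after ligation and 8 of 8 fell in cells against ligation, and their sum was at 174% to 178% in ligation and 71.2% to 73.2% with cells. By group mean the members Plvap, Vwf, Esm1, Clec14a and Angpt1 were likewise highest in ligation, Clec14a and Angpt1 passing in no comparison. The megakaryocyte and platelet list, relevant to Vwf and Pecam1, had 4 of 7 genes tested, and its sum was at 70.5% to 78.99% and 43.2% to 45.8%, with Pf4 alone past the threshold (-0.68 after ligation and -1.06 with cells against ligation, edgeR adjusted p 4.4e-05 and 6.8e-06). Pf4 made up 82.3% of that sum in sham, and macrophages can also express it. Of the other tested genes, Itga2b, Ppbp and Gp1ba stood at 0.69, 0.51 and -0.05 after ligation, with edgeR adjusted p-values of 0.14, 0.346 and 0.936. Their group means were between 1.74 and 3.82 CPM, and those of Gp9, Gp6 and Treml1 were below 1 CPM. None of 8 lymphocyte genes was tested, and their highest mean over all 9 libraries was 1.23 CPM. Of 6 proliferation genes 5 were tested and 5 rose after ligation, and 4 fell in cells against ligation, among them Mki67, which was at 2.31, 2.64 and 4.45 CPM in sham, 8.31, 10.7 and 10 in ligation and 2.27, 3.47 and 1.73 with cells. Their part in the endothelial changes was not tested.

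**Figure D4:**
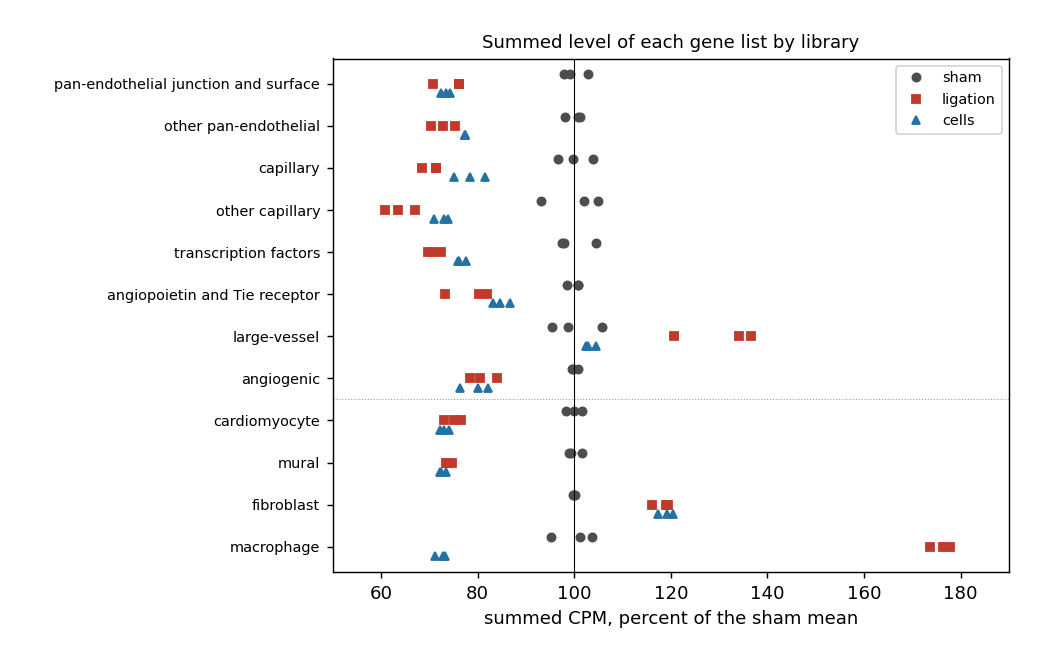
Summed CPM of each gene list in each library, as a percentage of the mean of the 3 sham libraries; circles are sham, squares ligation and triangles cells, and lists below the dotted line are markers of other cell types. Junction, capillary and transcription factor lists lie at 76.2% of sham or less in ligation and cardiomyocyte and mural markers at 76.5% or less, while the large-vessel list lies at 121% or more and macrophage markers at 174% or more. Lpl makes up 47.9% of the other capillary sum in sham.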

How the data were processed

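Total RNA of 9 mouse heart libraries was extracted with TRIzol and prepared with a NEBNext Ultra kit, per the labels' protocols. The authors deposited 1 file of whole-number counts per gene and library on Ensembl IDs, and mm10 is the genome build per the submitters' processing notes. The aligner, the counter, its strand setting and the annotation are not given in the sources used here. Rows naming no gene stayed out of library sizes, reads marked ambiguous being 8.09% to 8.72%. Symbols came from GENCODE M21 for 53274 of 53465 IDs.

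edgeR 4.0.16 (R 4.3.3) was fitted to all 9 libraries, with 1 mean per group, TMM factors, filterByExpr and the quasi-likelihood test with 6 residual degrees of freedom. Tests were two-sided and adjusted by Benjamini-Hochberg over 13825 genes, with a threshold of 0.05. On simulated counts for ligation against sham, 157 of 197 genes changed by 1 on the log2 scale were called, with 12 of the unchanged genes among 13634 tested; smaller changes, as most members show, were not simulated. Alternatives were RLE size factors, library totals alone, other filters, DESeq2 1.42.0, limma-voom 3.58.1, 2-group fits, fits without mitochondrially encoded genes, a replicate block and each library left out. Mitochondrially encoded genes took 19.1% to 19.9% of counts in sham and 12.5% to 14.3% in the ligated groups.

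The members and lists were chosen with earlier results of these data known. Values in every library are given for called members without range overlap (up to 4 per role and comparison), for 10 preset members, and for some others chosen after their values were seen. Of the further lists, up to the 3 largest called changes were named, beside some chosen after their values were seen.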

Additional observations from a re-analysis of the deposited data

How the results depend on the processing

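Of the 29 calls in ligation against sham, 22 held in all 19 alternatives, as did 4 of 8 in cells against ligation and 21 of 29 in cells against sham. Library totals alone gave 5 higher members in ligation against sham and turned the sign of values that had not passed, except Mmrn2 in cells against sham, which had passed. These were Sox17 (0.0686), Ptprb (0.125) and S1pr1 (0.0545) in ligation against sham, Emcn (-0.00333) and Sox18 (-0.00444) in cells against ligation, and Cldn5 (0.0293), Clec14a (0.0297), Mmrn2 (0.00136), Vwf (0.0508), Angpt1 (0.000762) and S1pr1 (0.132) in cells against sham. With it the median of all genes moves by 0.19, -0.03 and 0.16, in the order of comparisons above. The share of higher genes among calls over all genes was 78.7% against 52.7%, 32.0% against 42.4% and 73.1% against 51.2%. Summing libraries with a shared header stem, chosen after seeing the data, left 28, 5 (3 higher, 2 lower) and 29 calls and turned Nos3 in cells against ligation (0.00572) and Ptprb in cells against sham (-0.0117).

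Leaving out 1 library gave 27 to 30 calls in ligation against sham (2 to 4 higher, 24 to 27 lower), 5 to 8 in cells against ligation (2 to 4 higher, 2 to 5 lower) and 26 to 30 in cells against sham (2 to 3 higher, 23 to 27 lower). Values whose sign turned ranged from -0.116 to 0.00398 for Ptprb in ligation against sham. In cells against ligation they ranged from -0.189 to 0.0836 for Angpt2, -0.234 to 0.0163 for Apln, -0.00167 to 0.103 for Aplnr, -0.0158 to 0.11 for Cyyr1, -0.00941 to 0.144 for Erg, -0.107 to 0.111 for Nos3, -0.0429 to 0.118 for Robo4 and -0.0141 to 0.0496 for Sox18. In cells against sham they ranged from -0.00526 to 0.0459 for Ptprb and -0.0543 to 0.018 for S1pr1. The cause was not tested.

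With the replicate block the calls were 29, 7 and 28, She being lost in cells against ligation (0.302, edgeR adjusted p 0.0527) and Mmrn2 in cells against sham (-0.156, 0.053). Same-numbered libraries had correlations of deviations from -0.123 to 0.144, so they share a number and no pairing is shown. Depth limits Esm1, Apln, Angpt1 and Angpt2 most, the members of lowest count.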
